A study of Mus musculus with 20 samples.

Results

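LHX6 peaks are the stretches of the mouse genome at which chromatin precipitated with a polyclonal LHX6 antibody was enriched in a single library. The library came from basal ganglia of wild-type CD-1 embryos at embryonic day 13.5. An input served as control, but peaks were called with no local background. Each was scored against the same background value, not against input depth at its site. All peaks on chromosomes 1 to 19 and X were taken, rows with the same borders were merged, and peaks that overlapped a region in all 9 other peak lists of the study were left out. This kept 1589 of 1651 peaks and removed 62. The study compared wild-type mice with a conditional Nkx2-1 mutant, labelled Nkx2-1cKO, and asked what NKX2-1 controls in developing forebrain GABAergic neurons. NKX2-1 peaks (5622 after the same exclusion) came from the same tissue, strain, genotype and age as LHX6. Regions of H3K27ac, H3K4me1, H3K4me3 and H3K27me3 came from the medial ganglionic eminence (MGE) of C57BL/6 embryos of that age, wild type or Nkx2-1cKO. The driver of the deletion and the number of embryos in a pool are not given in the sources used here. LHX6 was precipitated in wild type alone, from another strain and a wider dissection than the marks, so mutant marks below describe sites bound in wild type.

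LHX6 is a LIM-homeodomain transcription factor. It is switched on in postmitotic cells of the MGE downstream of NKX2-1, a homeodomain factor of the NK2 class, and is needed for the migration and maturation of cortical interneurons that later make parvalbumin or somatostatin. LIM-homeodomain proteins bind short AT-rich DNA words built on TAAT and often act with partner factors. H3K27ac marks active enhancers and promoters, H3K4me1 enhancers, H3K4me3 promoters, and H3K27me3 chromatin silenced by Polycomb.

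The LHX6 library held 50.7 M tags after duplicates were removed and its input 60.5 M, within a range of 26.8 to 89.1 M tags over the 10 ChIP libraries. Each antibody and genotype had 1 library, so no difference below has a replicate check and none was tested. Ranges in brackets are 95% Clopper-Pearson limits, which are exact for a count and hold its sampling error alone. The tissue labels were checked on markers: wild-type H3K27ac lay over a transcription start site (TSS) of 11 of 12 MGE markers, Sp9 being the other, and of 0 of 8 pallial, 0 of 6 blood and endothelial and 0 of 3 microglial markers. H3K27me3 lay over a TSS of 8, 7, 2 and 0 of them.

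The peaks were split into 2 kinds by how closely they were packed, and the sequences under their summits differed. Summit windows of 101 bases show them (NCBIM37, plus strand, credited to the reference genome; each is named by the protein-coding gene with the nearest TSS). Capitals mark any of 5 homeodomain words on either strand (the word TAATTA, the word TAATCA, the word CAATTA, the word CAATCA or the word TAATGA). Gm9866, Galntl6 and Arl6ip6 are among the strongest peaks, Tle4 and Nxph1 are among the genes with most peaks outside dense runs, and Lhx6 is the gene itself. Dock2 is a strong peak without a word. Cwc22, Mrgpra3 and Speer4e stand for peaks packed into dense runs. Their windows hold no word, which is not true of all such peaks. The strongest peak at Auts2, also in a dense run, has TAATGA and CAATCA in its window. The share of peaks in dense runs with a word is given below.
Gm9866, chr12:27591080-27591180: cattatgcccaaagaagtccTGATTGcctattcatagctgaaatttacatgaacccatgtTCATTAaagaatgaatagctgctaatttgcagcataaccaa
Galntl6, chr8:60851263-60851363: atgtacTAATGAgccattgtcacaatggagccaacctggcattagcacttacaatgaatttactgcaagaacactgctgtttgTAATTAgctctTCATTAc
Arl6ip6, chr2:53347462-53347562: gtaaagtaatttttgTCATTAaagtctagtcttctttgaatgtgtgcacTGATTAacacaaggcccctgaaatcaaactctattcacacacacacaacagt
Tle4, chr19:14871021-14871121: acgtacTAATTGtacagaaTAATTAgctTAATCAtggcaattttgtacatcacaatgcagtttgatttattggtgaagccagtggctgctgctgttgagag
Nxph1, chr6:9785296-9785396: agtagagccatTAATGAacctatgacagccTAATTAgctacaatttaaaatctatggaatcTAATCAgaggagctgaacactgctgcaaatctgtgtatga
Lhx6, chr2:35959807-35959907: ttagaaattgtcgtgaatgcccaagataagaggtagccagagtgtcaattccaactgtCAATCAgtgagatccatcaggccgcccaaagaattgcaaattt
Dock2, chr11:34495350-34495450: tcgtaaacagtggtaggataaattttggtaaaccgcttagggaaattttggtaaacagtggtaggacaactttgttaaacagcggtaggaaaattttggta
Cwc22, chr2:77783104-77783204: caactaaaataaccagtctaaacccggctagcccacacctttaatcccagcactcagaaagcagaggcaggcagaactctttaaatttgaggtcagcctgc
Mrgpra3, chr7:54855205-54855305: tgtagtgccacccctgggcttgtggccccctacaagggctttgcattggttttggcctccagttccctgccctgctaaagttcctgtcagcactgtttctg
Speer4e, chr5:14954327-14954427: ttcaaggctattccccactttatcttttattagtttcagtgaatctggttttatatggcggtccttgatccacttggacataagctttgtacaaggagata

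The first kind, outside dense runs, held homeodomain words at the summit more often than the sequence around it, and the second, in dense runs, did not. The split was set by run size and not by sequence, and each kind held peaks with and without a word. Peaks were joined into a run while neighbouring summits lay at most 50 kb apart. There were 27 dense runs of at least 5 peaks, which held 478 peaks, 30.1% of all (27.8 to 32.4). The other 1111 peaks, called scattered here, were 892 single peaks, 122 peaks in pairs and 97 in runs of 3 or 4. In the 200 bases around the summit, 938 of 1111 scattered peaks held at least 1 of the 5 words, 84.4% (82.2 to 86.5). The share was 38.1% in windows of the same size 1 kb to each side and 38.9% in 51107 windows placed every 50 kb along the genome. Among the 478 peaks of dense runs it was 33.1% (28.8 to 37.5), against 37.7% at their sides. The 5 words were grouped after all 6-letter words had been counted in these same windows, so these shares describe the peaks and test nothing.

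The words were dense as well as frequent in scattered peaks. A scattered summit window held 2.39 words on average and a side window 0.532. At least 3 words stood in 526 scattered windows, 47.3%, against 2.39% of side windows, while in dense runs the share was 4.18% against 2.93%. Along the sequence, the share of scattered peaks with a word centred in a 20-base bin was highest at the summit, at 31.9%, and had a median of 5.99% beyond 300 bases. In dense runs no rise was seen at the summit: the central bins ranged from 3.35% to 5.23%, against a median of 4.92% farther out. NKX2-1 peaks outside dense runs rose to 10.5% over 4.16%.

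**Figure D1:**
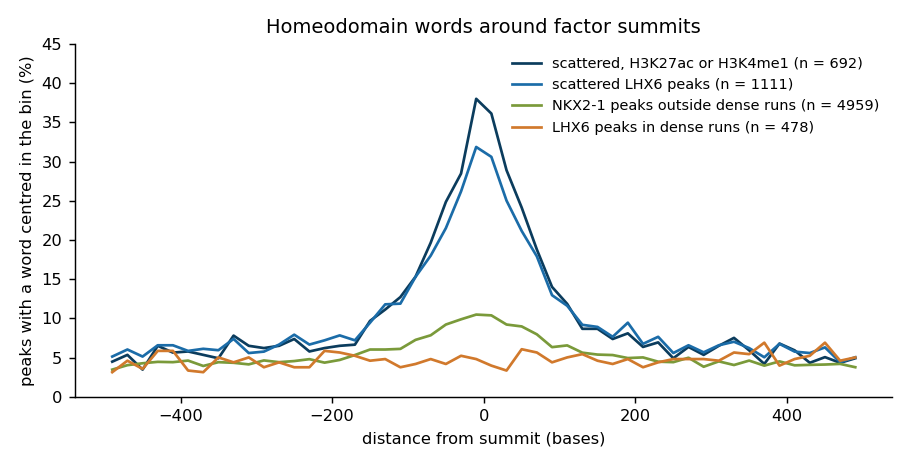
Share of peaks (y axis, %) with a homeodomain word centred in each 20-base bin, by distance from the summit (x axis, bases), for 4 groups of peaks. Scattered LHX6 peaks reach 31.9%, those with H3K27ac or H3K4me1 38.0%, NKX2-1 peaks 10.5%, and LHX6 peaks in dense runs stay flat.

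No single word accounted for the pattern. TAATCA stood in 47.4% of scattered windows (44.5 to 50.4), against 10.8% at the sides and 10.2% of genome windows. CAATCA stood in 38.8% against 8.55%, CAATTA in 36.5% against 9.59%, TAATGA in 34.5% against 12.6%, and TAATTA in 32.3% against 7.07%. In dense runs TAATCA stood in 8.79%. Over all 1589 peaks, the 10 words of 6 letters with the largest difference between summit and side windows began with TAATCA at 25.2 percentage points. Next were AATCAG at 22.4 points, CAATCA at 21.1 points, CAATTA at 18.3 points, AATTAG at 17.9 points and TAATTA at 17.6 points. The list ended with AATCAA at 15.9 points, TAATGA at 14.9 points, ATTAGC at 14.9 points and GATTGC at 14.4 points. All 10 hold AAT or ATT, and several overlap each other by shifts of 1 or more letters, such as TAATCA with the shifted AATCAG. NKX2-1 peaks outside dense runs leaned to other words: TAATCA stood in 12.4% of them and the NK2 core (the word CACTTGA or the word CACTCAA) in 22.6%, against 4.74% at their sides. In scattered LHX6 windows the NK2 core stood in 8.55% against 4.37%.

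Words of other factor families were also more frequent at scattered summits. The POU octamers ATGCAAAT and ATGCTAAT, words bound by POU-domain factors, stood in 12.7% (10.8 to 14.8), against 2.75% at the sides, 2.501% of genome windows and 2.93% of windows in dense runs. The word ATGCTAAT alone stood in 6.12% against 0.810%, and it can overlap a TAAT word. The E-box CAGCTG, a word of basic helix-loop-helix proteins, stood in 19.4% (17.2 to 21.9) against 8.37%. The E-box CAGGTG went the other way, in 7.29% (5.83 to 8.98) against 11.97%. The TALE core TGACAG stood in 17.8% against 12.8%, and the SOX core (the word ACAATG or the word ACAAAG) in 34.3% against 28.4%. Both strands were searched throughout.

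The share with a word differed by marks and distance among scattered peaks, and was lowest in the weakest ones. It was 93.9% (650 of 692) where wild-type H3K27ac or H3K4me1 overlapped the peak, 93.2% of these with NKX2-1 and 95% without. It was 79.6% (191 of 240; 73.9 to 84.5) in peaks with neither mark and no NKX2-1 peak, and 54.2% (97 of 179; 46.6 to 61.6) in peaks with neither mark that overlapped NKX2-1. By distance to the nearest TSS it was 64.9% within 2.5 kb, 66.7% up to 10 kb, 76.7% up to 50 kb, 85.4% up to 100 kb, 92.1% up to 500 kb and 93.1% beyond. In 4 groups of like size, ordered from the weakest peaks to the strongest, it was 71.9%, 88.4%, 90.5% and 87.4%.

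Runs separated the peaks by chromatin too. Single peaks overlapped wild-type H3K27ac in 51.6% (48.2 to 54.9) and H3K27me3 in 5.94% (4.48 to 7.70). Pairs had H3K27ac in 66.4% (57.3 to 74.7), more than single peaks, and H3K27me3 in 10.7%. In runs of 3 or 4 the shares were 27.8% and 30.9%, and in dense runs 7.32% (5.15 to 10.04) and 45.4% (40.9 to 49.98). NKX2-1 overlap went from 51.5% of single peaks to 77.0% of peaks in dense runs (72.9 to 80.7). The word share fell from 87.8% of single peaks and 85.2% of pairs to 52.6% in runs of 3 or 4.

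**Figure D2:**
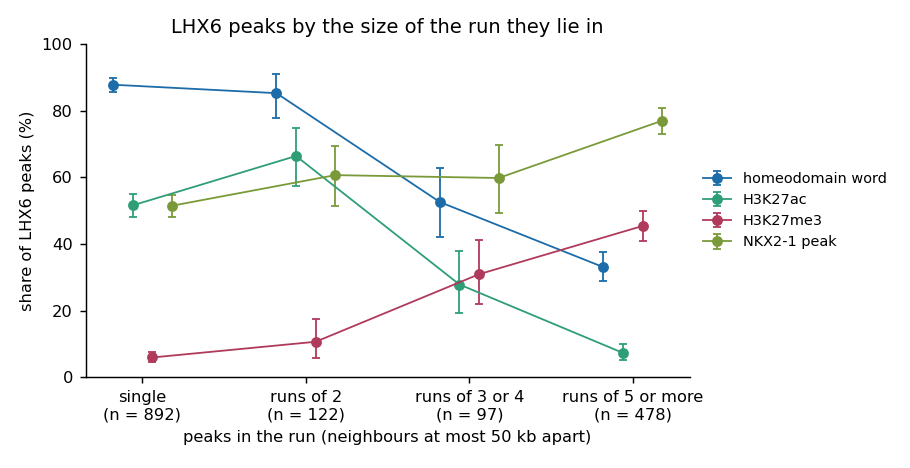
Share of LHX6 peaks (y axis, %; bars are exact 95% intervals) with a homeodomain word, wild-type H3K27ac, wild-type H3K27me3 or an NKX2-1 peak, by the number of peaks in the run (x axis). Words and H3K27ac are low and H3K27me3 and NKX2-1 overlap high in runs of 5 or more.

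The 27 dense runs took up 1.66 Mb, 0.0629% of the chromosomes' length, and the 10 largest held 346 peaks (21.8% of all). The mean spacing of the 1589 peaks would be 1661 kb. The median gap between neighbouring summits was 380 kb over all peaks and 1151 kb over scattered peaks. Of the 313 peaks with H3K27me3, 217 lay in dense runs (69.3%). In 17 runs no peak had H3K27ac, and in 23 at least as many peaks overlapped NKX2-1 as did not. The NKX2-1 list itself had 663 of 5622 peaks (11.8%) in runs of at least 5. Copies in the reference differed between the kinds. They were counted for 5 words of 32 bases around each summit, and each peak was given their median. A median of 1, called single-copy here, was found for 95.5% of scattered peaks and 75.5% of peaks in dense runs. Some words of a single-copy peak may still be repeated. As peaks were called with no local background, input depth at a site did not enter their score. Depth of the input over these runs was not analysed here, and its part in the runs was not tested.

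The largest run lay over Cwc22, a gene of the pre-mRNA splicing machinery, and reached toward Zfp385b (77707737 to 77865160 on chromosome 2). It held 56 peaks in 157 kb, 55 of them shared with NKX2-1, and the peaks covered 114 kb of it. Its peaks were long (median 1779.5 bases, against 337 for scattered peaks), with the authors' fold from 2.96 to 9.26. Of the 56, 1 had H3K27ac and 0 had H3K27me3. All 56 peaks were single-copy in the reference by the median of their sampled words. How many copies the CD-1 genome holds was not measured. A similar run at 1600014C10Rik on chromosome 7 had 10 peaks, all shared with NKX2-1, with a median length of 1766 bases and 2 with H3K27ac.

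In the other large runs the share of peaks with H3K27me3 varied. The run at Heatr7b1, Hjurp and Ugt1a1 on chromosome 1 held 47 peaks in 76.4 kb, 39 with H3K27me3 and 9 with H3K27ac. The run at the Speer genes Speer4e, Gm10354, Gm17019 and Gm9758 on chromosome 5 held 43, 22 with H3K27me3 and 0 with H3K27ac, and 16 of its summits had single-copy sequence. Gm13212, Gm13225 and Tnfrsf8 on chromosome 4 shared a run of 39 with 31 in H3K27me3, and the nearby Gm13145 and Gm13152 a run of 35 with 30. The run at Cd244, a receptor of natural killer cells, and the lectin gene Itln1 held 34, 10 with H3K27me3. Gm15319 on chromosome 8 followed with 33, with median copy numbers of up to 20. The prolactin-family genes Prl2c2 and Prl2c3 had 22, the itch receptor family gene Mrgpra3 had 20 and the odorant receptor gene Olfr161 had 17, each with 0 in H3K27ac and with 9, 6 and 10 in H3K27me3.

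In a pair of dense runs most peaks had H3K27ac. At Auts2 on chromosome 5, a gene of neuronal differentiation linked to Polycomb and cytoskeletal control, all 5 peaks of the run had H3K27ac and H3K4me1, 4 overlapped NKX2-1, and 0 had H3K27me3. These 5 lay within 67.0 kb, and a further 2 peaks near Auts2 were scattered. At Mid1, a ubiquitin ligase gene at the end of chromosome X, and the neighbouring Gm17379, 14 peaks lay in 39.3 kb, 10 with H3K27ac and 14 with NKX2-1. Near the sequence starts of chromosomes, within 250 kb, lay 48 peaks, 30 of them in dense runs; 41 overlapped NKX2-1, 35 had H3K27me3, and 11 held a homeodomain word. Chromosomes 3, 6, 12, 14, 15, 17, 18 and 19 had 0 peaks in dense runs. Scattered peaks were spread from 0.156 per Mb on X to 0.607 per Mb on chromosome 13.

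Scattered LHX6 peaks lay farther from protein-coding TSSs than NKX2-1 peaks and than peaks in dense runs. Their median distance to the nearest TSS of a protein-coding gene was 87.3 kb, against 16.4 kb in dense runs, 25.1 kb for NKX2-1 peaks and 56.1 kb over all 1589 peaks. With the TSSs of all annotated genes the last fell to 22.7 kb, and the share of all peaks within 2.5 kb went from 5.22% to 11.3%. Within 2.5 kb lay 37 scattered peaks, 3.33% (2.36 to 4.56), below the 5.38% of genome positions that lie so close and the 26.6% of NKX2-1 peaks. Genome positions were not filtered as the peaks were. With peaks found in all 10 lists kept in, the share over all LHX6 peaks was 6.54% (5.40 to 7.84) rather than 5.22%. Beyond 100 kb lay 46.5% (43.6 to 49.5) of scattered peaks, 37.7% of genome positions and 22.9% of NKX2-1 peaks. Introns held 38.6% of scattered summits (genome 35.8%) and space between genes 59.3% (genome 61.2%), and 45.2% lay upstream of their nearest TSS.

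**Figure D3:**
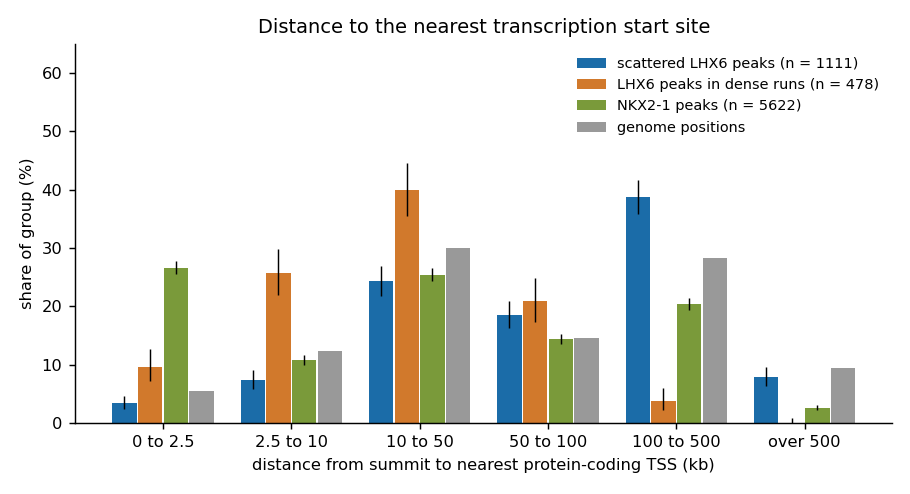
Share of each group (y axis, %; bars on LHX6 and NKX2-1 peaks are exact 95% intervals) by distance from the summit to the nearest protein-coding TSS (x axis, kb). Scattered LHX6 peaks are fewest within 2.5 kb, at 3.33%, and 46.5% lie beyond 100 kb.

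Of the 8 strongest peaks within 2.5 kb of a TSS, those at Pou2f1 and Fam65b held homeodomain words and the other 6 did not. The strongest lay 288 bases upstream of a TSS of Pou2f1, which encodes the octamer-binding factor OCT1 (167865167 to 167865675 on chromosome 1, pileup 90, fold 11.7), with H3K27ac in both genotypes, and its window held homeodomain words and a POU octamer. A peak 177 bases upstream of Fam65b (pileup 79, fold 10.3), had H3K27ac in both genotypes and no NKX2-1 peak. The other 6 lay at Gm10719 and Gm17535, where the sampled words had medians of 12 and 10 copies in the reference, and at 4931408C20Rik, Cwc22, Litaf and Gm10807. All of these 6 but Cwc22 had wild-type H3K27me3, and all 6 overlapped NKX2-1.

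Of the 12 strongest peaks, 10 lay over 50 kb from a TSS, the exceptions being Dock2 and Guca2b. The highest pileups were 159 at Gm9866 (27590902 to 27591370 on chromosome 12, fold 20.6, 254 kb from the TSS) and 155 in an intron of Galntl6 (60850985 to 60851623 on chromosome 8, fold 20.1, 539 kb). Next came 146 at Qk, which encodes a splicing regulator (fold 18.9, intronic), and 133 in an intron of Dock2, a Rac activator of blood cells, which had H3K27me3 and no word. Guca2b followed with 132, Vmn1r238 with 131, Pxmp3 with 127, an intron of Tox, an HMG-box factor gene, with 125, Arl6ip6 with 124, Mat2b with 123, Chd2, a chromatin remodeller gene, with 122, and Gm17295 with 121. Of the 12, 9 held a homeodomain word; Dock2, Vmn1r238 and Pxmp3 did not, and they were the 3 with H3K27me3. The peak at Arl6ip6 (53347271 to 53347728 on chromosome 2, fold 16.1, 296 kb from the TSS) overlapped no other list at all. The weakest peaks had a pileup of 20 and a fold of 2.70, at the caller's limit.

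Counted by nearest TSS, 909 of 22342 protein-coding genes had at least 1 peak, and 91 had at least 3 (0.407%). The genes with most peaks were those of the dense runs: Cwc22 had 52, Gm15319 33, Heatr7b1 25, Mrgpra3 20, Olfr161 19, Gm13212 18, Itln1 17 and Gm13225 16. Among scattered peaks the order was a different one, and 48 genes had at least 3 (0.215%). This second order was drawn up after the dense runs had been seen. Tle4, a Groucho corepressor, had 7, Robo1, a receptor for SLIT guidance cues, had 6, and Nxph1, a neurexin ligand, and Tshz3, a zinc-finger homeobox gene, had 5 each, as did Scaf8, which borders the start of chromosome 17. Elmo1, a partner of DOCK proteins in Rac activation, Agap1, an ARF GTPase-activating protein gene, and Cdkal1, a tRNA-modifying enzyme gene, had 4 each. Long stretches of genome gather more peaks: the stretch nearest to a gene had a median of 678 kb for the 48 genes, 338 kb for the 863 with at least 1 scattered peak and 46.5 kb for all genes. The stretch of Tle4 held 6.51 scattered peaks per Mb. Stretches with 4 peaks were short at Abt1 (48.3 kb), the defensin gene Defa21 (55.1 kb), Gm10595 (87.7 kb), Vmn2r-ps105 (116 kb) and 4930467E23Rik (138 kb). In that order, 0, 3, 4, 4 and 4 of their peaks overlapped NKX2-1.

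**Figure D4:**
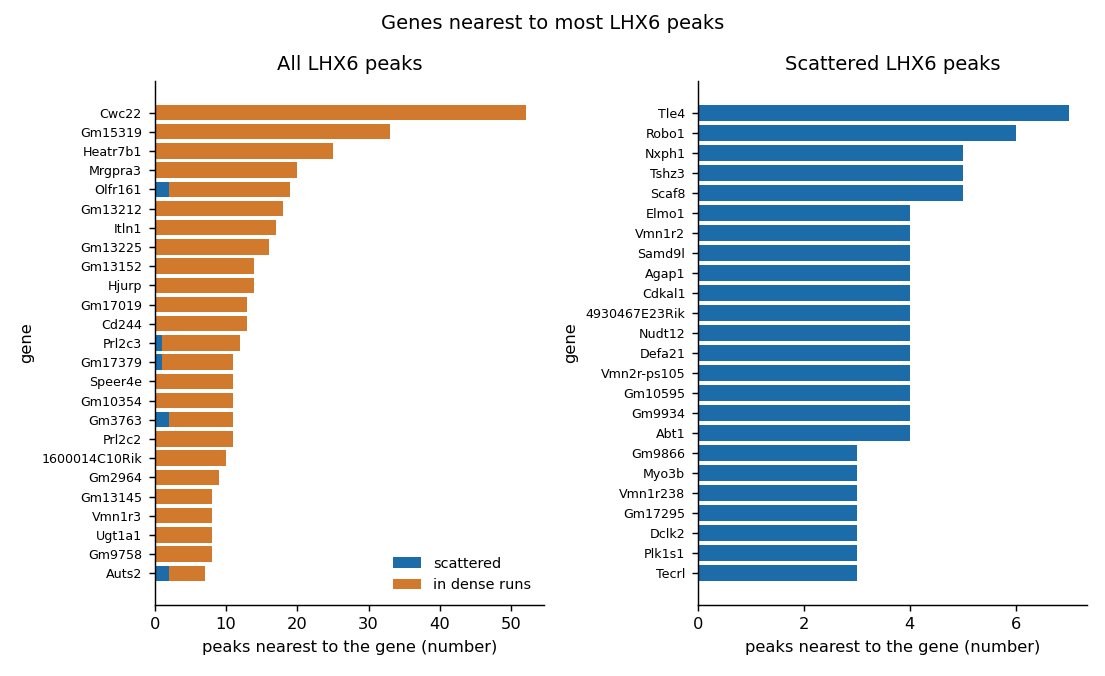
Protein-coding genes nearest to most LHX6 peaks (x axis, number of peaks), 25 over all peaks (left) and 24 over scattered peaks alone (right). On the left, dense runs supply nearly every peak, with 52 at Cwc22; on the right Tle4 leads with 7 and Robo1 follows with 6.

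Peaks of these genes differed among themselves in marks. Of the 7 at Tle4, between 179 and 633 kb from the TSS, 5 had H3K27ac or H3K4me1, 3 overlapped NKX2-1 and 1 overlapped nothing. Of the 5 at Tshz3, 4 lay 61.1 to 222 kb upstream with H3K4me1, and the intronic peak 44.2 kb downstream had no mark. All 5 peaks at Tshz3 held a homeodomain word and 0 overlapped NKX2-1. At Elmo1 all 4 peaks, with folds from 4.12 to 9.39, had H3K27ac, H3K4me1 and NKX2-1. The strongest peak at Nxph1 (fold 13.1, 886 kb downstream) had H3K27ac in both genotypes, while peaks 748 and 999.6 kb away had no mark. The strongest at Robo1 (fold 10.4, 1124 kb upstream) was unmarked and without NKX2-1.

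At Agap1, H3K27ac and H3K4me1 parted between the genotypes. Of its 4 peaks, 3 had wild-type H3K27ac and 0 had it in the mutant, while all 4 had H3K4me1 in both. NKX2-1 overlapped 1 of the 4.

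The genes of the LHX6 pathway itself were among those with peaks. At Lhx6, a weak peak (35959689 to 35960016 on chromosome 2, pileup 30, fold 3.99) lay in an intron 277 bases upstream of a TSS, with H3K27ac in wild type alone. Stronger peaks lay 92.5 kb away on the side of Ttll11 (pileup 71, fold 9.26) and 98.0 kb away on the side of Ptgs1 (pileup 118, fold 15.3), both with NKX2-1 and with H3K27ac in both genotypes. Nkx2-1 was nearest to 3 peaks, 65.6, 78.0 and 95.5 kb downstream, with folds of 6.69, 4.50 and 4.50, and all 3 had H3K27ac in both genotypes. Sox6, a SOX factor gene downstream of Lhx6 in mouse interneurons, had 1 peak 78.9 kb downstream (fold 5.66) with no wild-type mark, and Satb1, a chromatin organiser gene with a like role, had 2 at 206 and 227 kb. The neuregulin receptor gene Erbb4 had 3, with pileups of 61, 55 and 33, and 0 of the 3 had a mark in either genotype. The chemokine receptor gene Cxcr7 also had 3, with pileups of 54, 67 and 32, and all of them had H3K27ac in both genotypes.

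Among the gene lists, the one of transcription factors of the tissue had the largest share of genes near an LHX6 peak, most of them near peaks shared with NKX2-1. Over all 22342 protein-coding genes, 576 (2.58%) had a peak within 50 kb of a TSS, and of 10554 with H3K27ac over a TSS 2.98% had one. Of 34 transcription factors of the MGE and ventral telencephalon, 12 had one, 35.3% (19.7 to 53.5), among them Lhx6, Dlx1, Dlx2, Dlx5, Dlx6, Gbx1, Lmo3, Etv5, Npas1 and Bcl11b. With the 630 peaks that overlap no NKX2-1 peak it was 4 of 34, 11.8% (3.30 to 27.5). The share of all genes near one of these 630 peaks is not given here, and 2.58% is no match for it. NKX2-1 peaks lay within 50 kb of 22 of the 34, 64.7%, against 26.7% of all genes. Neighbours share peaks here. The peak between Dlx1 and Dlx2 (71373994 to 71374530 on chromosome 2, pileup 98, fold 12.7) counts for both homeobox genes, and so do those at Dlx5 and Dlx6 with pileups of 40 and 48. All 3 of these Dlx peaks had H3K27ac, H3K4me3 and H3K27me3 in wild type, and held a LIM homeodomain core (the word TAATTA or the word TAATGA). The 2 peaks at Lmo3, a LIM-only gene, with pileups of 36 and 24, and the peak at Npas1, a repressor gene of interneurons, with a pileup of 39, lay inside the genes with H3K27ac in both genotypes.

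Other lists were nearer the background or rested on few genes. Of 14 genes reported to depend on Lhx6 in mouse interneurons, 4 had a peak within 50 kb (among them Cxcr7, Npas1 and Erbb4) and 10 were nearest to at least 1 peak, 23 peaks in all. Of 15 NFI, POU and ZEB factor genes 4 had one (Nfib, Pou2f1, Pou3f1 and Pou3f3), of 20 actin and Rac regulator genes 5 (Phactr1, Elmo1, Tiam1, Tiam2 and Diap3), of 20 LIM genes 3 (Lhx6, Lmo1 and Lmo3), and of 14 basic helix-loop-helix genes 3 (Id4, Bhlhe22 and Npas1). Counts were 3 of 26 for identity genes of the lateral and caudal eminences, 3 of 25 for migration genes, 3 of 25 for potassium channels, 3 of 24 for cadherins, 2 of 32 for synaptic adhesion, 1 of 30 for axon guidance, 1 of 28 for glutamate and GABA receptors and transport, 1 of 15 for pallial neuron genes and 1 of 16 for housekeeping genes. No gene had one in the lists for the Notch pathway (15 genes), WNT pathway (20), TALE homeobox genes (10), progenitors and cell cycle (21), interneuron neuropeptides and calcium-binding proteins (12), oligodendrocytes (8), endothelium and blood (12), microglia (5) and Hox genes (20). With so few genes the exact interval of a count of 0 reaches from 16.1% (21 genes) to 52.2% (5 genes). Every gene counted had a scattered peak within 50 kb, against 2.29% of all genes.

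H3K27ac or H3K4me1 overlapped 692 of the 1111 scattered peaks and neither overlapped 419. H3K27ac overlapped 51.1% of them (48.1 to 54.1) while covering 2.23% of the genome, H3K4me1 57.1% against 2.99%, H3K4me3 37.2% against 1.84%, and H3K27me3 8.64% against 1.00%. Of the 568 scattered peaks with H3K27ac, 57.0% had the summit inside a region, and with at least 50% overlap H3K27ac over all 1589 peaks went from 37.9% to 22.0%. NKX2-1 peaks had H3K27ac in 70.0% and H3K4me3 in 60.7%. No wild-type mark touched 343 scattered peaks, 30.9% (28.2 to 33.7), against 14.4% of NKX2-1 peaks. NKX2-1 overlapped 591 scattered peaks, 53.2% (50.2 to 56.2), and the median distance between the summits of the overlapping peaks was 44 bases, with 57.0% within 50 bases. Seen from the other list, 17.3% of NKX2-1 peaks overlapped LHX6.

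More LHX6 summits lay inside a mark region in the mutant than in wild type. This comparison was added after the data had been seen. The comparison takes scattered peaks that overlapped a region of the mark in both genotypes, so the same peaks are read in each. For H3K4me1 there were 551: the summit lay inside a wild-type region in 384, 69.7% (65.7 to 73.5), and inside a mutant region in 489, 88.7% (85.8 to 91.3). It lay inside in the mutant alone at 118 peaks and in wild type alone at 13. For H3K4me3 the shares were 75.7% (253 of 334) and 89.2% (298), with 62 peaks inside in the mutant alone and 17 in wild type alone. For H3K27ac they were 70.1% (281 of 401; 65.3 to 74.5) and 75.1% (301; 70.5 to 79.2), with 47 and 27.

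Around the summit the 2 genotypes differed in shape. Of the 551 peaks with H3K4me1 in both, 80.4% had wild-type H3K4me1 300 bases to the right of the summit and 78.6% to the left, above the 69.7% at the summit. In the mutant, 76.6% and 75.1% had it there, below the 88.7% at the summit. The wild-type dip at H3K27ac was deeper, from 87.3% at 300 bases to 70.1%, and in the mutant it was shallower, from 80.5% to 75.1%. For H3K27ac, wild-type regions also reached farther: 64.8% of the 401 peaks were covered 1000 bases to the right in wild type and 45.6% in the mutant.

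**Figure D5:**
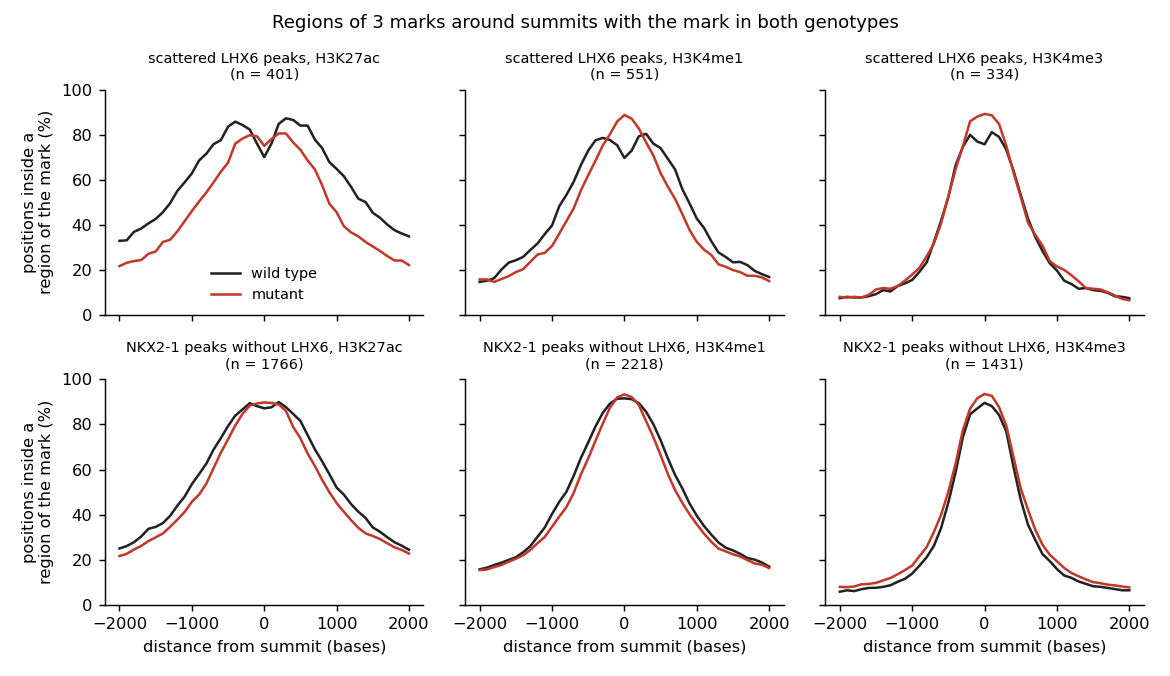
Share of positions inside a region of H3K27ac, H3K4me1 or H3K4me3 (y axis, %) by distance from the summit (x axis, bases) in wild type (black) and Nkx2-1 mutant (red), for peaks with the mark in both genotypes. Over scattered LHX6 peaks (top) wild-type H3K4me1 dips to 69.7% at the summit and mutant H3K4me1 peaks there at 88.7%; over distal NKX2-1 peaks without LHX6 (bottom) it is 91.6% and 93.3%.

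NKX2-1 peaks without LHX6 gave smaller differences at the summit, but their wild-type shares were higher, which left less room for a rise. Over those outside dense runs and over 2.5 kb from a TSS, the summit lay inside an H3K4me1 region in 91.6% of 2218 in wild type and 93.3% in the mutant, with 96 peaks inside in the mutant alone and 57 in wild type alone. For H3K27ac the shares were 87.1% and 89.8% of 1766, and for H3K4me3 89.6% and 93.5% of 1431. With peaks near a TSS included, H3K4me1 was at 81.9% of 2882 in both genotypes. Among scattered LHX6 peaks the H3K4me1 rise was seen with NKX2-1 (71.7% to 90.9% of 353) and without it (66.2% to 84.8% of 198), and over 2.5 kb from a TSS (69.9% to 88.6% of 534). The mutant H3K4me1 library was the deeper, with 69.0 M tags against 59.7 M, while the mutant H3K4me3 library was the shallower, with 26.8 M against 28.8 M; the part of depth in these shares was not tested. Both genotypes come from C57BL/6, and LHX6 was not measured in the mutant.

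With overlap by at least 1 base, H3K27ac regions that held an LHX6 peak were lost in the mutant in a larger share than regions in general. A wild-type region was called lost where no mutant region overlapped it. Of 710 H3K27ac regions with an LHX6 peak 196 were lost, 27.6% (24.3 to 31.1), against 19.4% of all 62591 H3K27ac regions. The peaks left out of the LHX6 list overlapped every mark in both genotypes by rule, which raises the lost share. The regions compared with were not filtered. With those peaks kept in, 197 of 793 regions were lost, 24.8% (21.9 to 28.0). The direction of the difference rests on the overlap asked for between peak and region. Where an overlap had to cover at least 50% of the shorter feature, for peak and region and for the regions of both genotypes, 52 of 358 were lost, 14.5% (11.0 to 18.6), below the 20.8% of all regions lost under the same rule. With 50% asked for between peak and region alone, 51 of 358 were lost, 14.2% (10.8 to 18.3). With 50% asked for between the genotypes alone, 202 of 710 were lost, 28.5% (25.2 to 31.9). The 358 regions were longer, with a median of 1714.5 bases. Away from H3K4me3, 133 of 231 were lost, 57.6% (50.9 to 64.0), against 40.3% of all such regions and 44.8% of those with an NKX2-1 peak. Regions with a scattered LHX6 peak lacking NKX2-1 were lost in 38.1% (101 of 265; 32.2 to 44.3), and those with a peak shared with NKX2-1 in 20.3% (82 of 403; 16.5 to 24.6). Away from H3K4me3 these shares were 59.7% (83 of 139) and 57.0% (45 of 79). Regions with an LHX6 peak were longer than the rest, with a median of 992.5 against 604 bases. Those with a scattered peak lacking NKX2-1 had a median of 846 bases, and those with a scattered peak shared with NKX2-1 1286 bases. The part of length in these shares was not tested.

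For each of the 4 marks, regions with an LHX6 peak were gained in a smaller share than all regions. Of 494 mutant H3K27ac regions with an LHX6 peak 15 had no wild-type region under them, 3.04% (1.71 to 4.96), against 29.6% of all mutant regions. For H3K4me1 the gained share was 6.34% against 23.8%, for H3K4me3 11.5% against 28.1%, and for H3K27me3 17.0% (60 of 352) against 46.6%. Low gained shares were also seen at NKX2-1 peaks: 2.91% (H3K27ac), 2.41% (H3K4me1), 6.11% (H3K4me3) and 21.7% (H3K27me3). Mutant H3K27ac regions with an LHX6 peak were longer than all mutant ones, with a median of 1021.5 against 635 bases. H3K4me1 regions were longer too (980.5 against 589), but those of H3K4me3 (864 against 870) and H3K27me3 (487.5 against 552) were not. The part of length in the gained shares was not tested. As the peaks of both factors were called in wild-type tissue, sites bound in the mutant alone are not seen. With overlap by at least 1 base, H3K4me3 was the mark with the largest excess of losses, 22.0% (112 of 510) against 3.65%, and 42.2% (27 of 64) in dense runs. With an NKX2-1 peak it was 7.48%. H3K4me3 regions with an LHX6 peak were the shorter ones, with a median of 605.5 against 971 bases. Leaving out peaks found in all lists raises the H3K4me3 lost share too. It was not recomputed with those peaks kept in or with 50% overlap. For H3K4me1 115 of 763 regions were lost, 15.1% against 15.2%. Away from H3K4me3 the share was 32.1% (89 of 277; 26.7 to 38.0) against 27.1%. There it was 33.1% (48 of 145; 25.5 to 41.4) at scattered peaks without NKX2-1. Near H3K4me3 or not, the H3K4me1 share was 19.2% (50 of 261) at scattered peaks without NKX2-1 and 42.2% (19 of 45; 27.7 to 57.8) in dense runs. For H3K27me3 39 of 327 were lost, 11.9% (8.62 to 15.9) against 15.7%.

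The strongest peaks whose H3K27ac region was lost lay at Galntl6, Vmn1r238, Gm17295, Lsamp, Rad23b, Cacng3, Trat1 and Stmn2. At Galntl6 H3K4me1 remained in the mutant. Lsamp, a neuronal adhesion gene, had its peak in an intron 254 kb from the TSS (pileup 110), and Cacng3, an AMPA receptor auxiliary subunit gene, had one 122 kb downstream (pileup 98) without NKX2-1. The peak near Stmn2, a tubulin-binding protein gene of neurons, lay 263 kb upstream and carried H3K27me3 as well. The strongest peaks in gained regions had pileups of 75 at Dpy19l1, 67 at St18, a zinc-finger gene, 67 at Mid1 and 54 at 2610001J05Rik. Next were 53 in an intron of Clasp1 near Gm11102, 46 at BC052040, and 41 at both Gm10764 and Myo5b. They were drawn from 15 gained regions, against 196 lost ones, so the highest pileups of the 2 sets cannot be compared. Peak by peak, 401 scattered peaks had H3K27ac in both genotypes, 167 in wild type alone, 29 in the mutant alone and 514 in neither.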

How the data were processed

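Peak lists of 10 ChIP-seq libraries were used; the 10 input and IgG libraries, which have none, were not used. The submitters' processing notes name MACS2 2.1.0, BWA 0.6.2, bcl2fastq 1.8.4 and CASAVA 1.8.2, and the build mm9. Per the file headers (MACS 2.1.0.20140616), peaks were called at a p-value of 1e-05 with neither local background nor model, each tag reaching 250 bases, summits split and 1 tag kept per position. The inputs are named as merged; what was merged is not given in the sources used here. Per the file headers, the deposited pileup is the coverage signal at a summit. The authors also deposited its −log10 p-value, and the authors' fold is its ratio over background. With no local background, (pileup + 1)/fold was 7.77 at every LHX6 peak, so fold, pileup and p-value rank peaks alike and are one measure. The q-value column, which the file headers say was not calculated, was not used.

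Rows with the same borders were merged. Distances were taken to TSSs of 22342 protein-coding genes of GENCODE vM1 on NCBIM37 (mm9). Overlap meant at least 1 base. Marked regions with no overlapping region in the other genotype were called lost or gained. Summit windows of 200 bases were searched on both strands, and windows 1 kb to each side served for comparison. Each sample is the only one of its group, so no test was made. The members and gene lists were chosen with earlier results of these data known. Named peaks were the 12 with the highest −log10 p, the 8 strongest within 2.5 kb of a TSS and the 8 strongest in lost and in gained H3K27ac regions. Named genes were the 25 with most peaks, those of the 10 largest runs, list genes with most peaks within 50 kb (up to 4 a list) and Lhx6. Genes ranked by scattered peaks, and other genes of the lists, were named after their values were seen. Of 502 list entries 501 matched a gene. The work used samtools 1.23.1 with pysam 0.24.0, and Python 3.11.15 with pandas 2.3.3, matplotlib 3.10.9, scipy 1.17.1 and numpy 2.4.6, and the calculations were tested on simulated data with 0 mismatches over 6 steps. Alternatives changed the p-value limit, overlap, TSS set, windows, run gap and peak set. Values of some genes are not reported here.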

Additional observations from a re-analysis of the deposited data

Results flagged for a closer look

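Of the LHX6 summits in the deposited list, 304 lay outside chromosomes 1 to 19 and X and entered no comparison. They were listed because they are signal in data the comparisons did not use. Of these, 228 lay on unplaced sequence, 40 on unlocalised sequence of chromosome Y, 19 on the mitochondrial genome, 8 on unlocalised sequence of chromosome 8, 4 each on that of chromosomes 4 and 9, and 1 on that of chromosome 1. No control list was at hand to compare them with.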

How the results depend on the processing

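These summary values were recomputed: peaks within 2.5 kb of a TSS (5.22%), median TSS distance (56.1 kb), H3K27ac overlap (37.9%), NKX2-1 overlap (60.4%), H3K27ac regions lost (27.6%), peaks in dense runs (30.1%), genes with at least 3 peaks (91), MGE factors with a peak (35.3%) and windows with a LIM core (42.7%). With −log10 p of at least 10, the distance was 61.7 kb, H3K27ac 42.6%, NKX2-1 63.1%, runs 23.9% and the LIM core 46.3%. With peaks found in all 10 lists kept, 6.54% lay near a TSS. Without NKX2-1-overlapping peaks, 3.33% lay near a TSS, the distance was 74.7 kb, 38.1% of regions were lost, runs held 12.4%, 31 genes had 3 peaks, the MGE list was at 11.8% and the LIM core at 49.2%. An alternative added after the data were seen left out dense runs: 3.33% lay near a TSS, the distance was 87.3 kb, H3K27ac 51.1%, NKX2-1 53.2%, the LIM core 54.5%, and 48 genes had 3 peaks. With single-copy summits alone, also added later, the distance was 61.7 kb, H3K27ac 41.9%, runs 23.8% and the LIM core 46.4%. Requiring 50% overlap gave H3K27ac at 22.0% and losses at 14.5%, which turns the direction, since 20.8% of all regions were lost under the same rule. With TSSs of all annotated genes, 11.3% lay near one and the distance was 22.7 kb, and a 1 kb window held 2.83%. A narrower run gap gave 27.6%, peaks inside gene bodies gave 43 genes, a reach of 100 kb gave 55.9% of the MGE list, and a window of 100 bases gave the LIM core at 28.3%. The cause was not tested; narrower windows, fewer peaks and more TSSs change counts by construction. Of the other recomputed values, 24 changed little: shares and distances stayed inside the 95% range of the reported value, and gene counts (70 to 95) within 1.5 times. NKX2-1 overlap without NKX2-1-overlapping peaks, and runs without dense runs, are 0 by construction and have no value. No paired analysis was possible because each group has 1 library, and the numbered input libraries have no peak list. With 1 library an antibody, depth and antibody quality cannot be told apart from binding, and peaks under the caller's limit are not seen.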
